A study of Mus musculus with 8 samples.

Results

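DNA replication origin and fork genes were followed in mouse liver after 3 weeks of furan. The set holds 53 genes, listed by symbol in 13 groups that follow the protein complexes of the replication fork, and 49 of them were measured well enough to be tested, among 24921 genes or transcripts in all. A member was matched through the RefSeq accession of its array probe. Its level is the log2 processed signal minus the 75th percentile of that array, read from its brightest probe among those that stood well above background on 4 or more arrays. Levels are compared between arrays for a probe and never between genes, since probes differ in brightness.

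The animals were female B6C3F1 mice, bought at 5 to 6 weeks of age and kept for at least 7 days before dosing. The 4 mice of the vehicle group, replicates 2, 3, 4 and 6, were gavaged with corn oil. The 4 mice of the furan group, replicates 41, 42, 43 and 44, received furan in corn oil at 8 mg/kg body weight. Dosing lasted 21 days, and liver was frozen 4 hours after the last dose. Furan is a volatile compound that forms when food is heated, and it is a liver carcinogen in rodents. Total RNA of whole liver was used, so fewer cells of a type and less RNA per cell cannot be told apart.

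Replication starts where the origin recognition complex, with Cdc6 and Cdt1, loads the ring of Mcm2 to Mcm7 onto DNA. The kinase pair Cdc7 and Dbf4 and the cyclin-dependent kinases then turn each ring, with Cdc45 and the GINS complex, into an active helicase, and polymerases held by the Pcna clamp copy both strands. Most hepatocytes of an adult liver are out of the cell cycle, and many of these genes are transcribed under E2F factors when cells re-enter it.

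All 8 arrays were on 1 slide, with 55.1% to 69.4% of probe spots well above background on 7 of them and 86.2% on that of vehicle replicate 2. The hepatocyte gene Ttr, which encodes transthyretin, read 8.97 to 9.32 over the 8 arrays. Of 46 tested genes in 9 marker lists for liver and blood cell types, 0 passed the threshold of a limma adjusted p under 0.05. An unadjusted p under 0.05 was found for 5. Over all genes these shares were 4.18% and 23.8%. The 5 were the sinusoidal endothelial genes Stab2 and Pecam1, the hepatocyte gene Hnf4a, the stellate cell gene Col1a1 and the B cell gene Cd79a. Stab2 was at -0.48 ± 0.12 and Pecam1 at -0.39 ± 0.09 (limma adjusted p = 0.0687 and 0.0550), with every furan array below every vehicle array. The endothelial markers Lyve1, Kdr and Clec4g were at 0.00, -0.12 and -0.18 with overlapping groups. Hnf4a was at 0.31 (limma adjusted p = 0.0859) with every furan array above every vehicle array. Col1a1 was at 0.51 and Cd79a at -0.41. The part of these genes in the results was not tested. The Kupffer cell markers were higher on the array of vehicle replicate 4, by a median of 0.96 over the vehicle mean.

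Of the 49 tested members, 3 rose and 0 fell, or 6.12%, against 4.18% of all genes for either direction and 2.87% for increases (limma, Benjamini-Hochberg adjustment over all 24921). The 3 were Mcm6, Cdc25a and Fen1. At an unadjusted p under 0.05 there were 14 members, against 23.8% of all genes, and 13 members (26.5%) were both under that p and higher in furan, against 12.3% of all genes. Every furan array lay above every vehicle array for 10 members, against 10.8% of all genes. Every furan array lay below every vehicle array for 2 members, Pola2 and Rfc5, against 7.33% of all genes. The share of members past the threshold was thus near the background, and the direction of the differences was mostly upward: 38 of the 49 members had a log2 fold change above 0 (32 to 48 under other scalings), against 39.8% of all genes. Their median log2 fold change was 0.15, against -0.09 over all genes and -0.01 over the 15070 with a symbol. The members all have a symbol, and of those 15070 genes 48.9% were above 0. The threshold was passed by 5.22% of them, 3.95% as increases. In 16.3% the unadjusted p was under 0.05 with a higher level in furan. In 14.2% every furan array lay above every vehicle array.

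**Figure D1:**
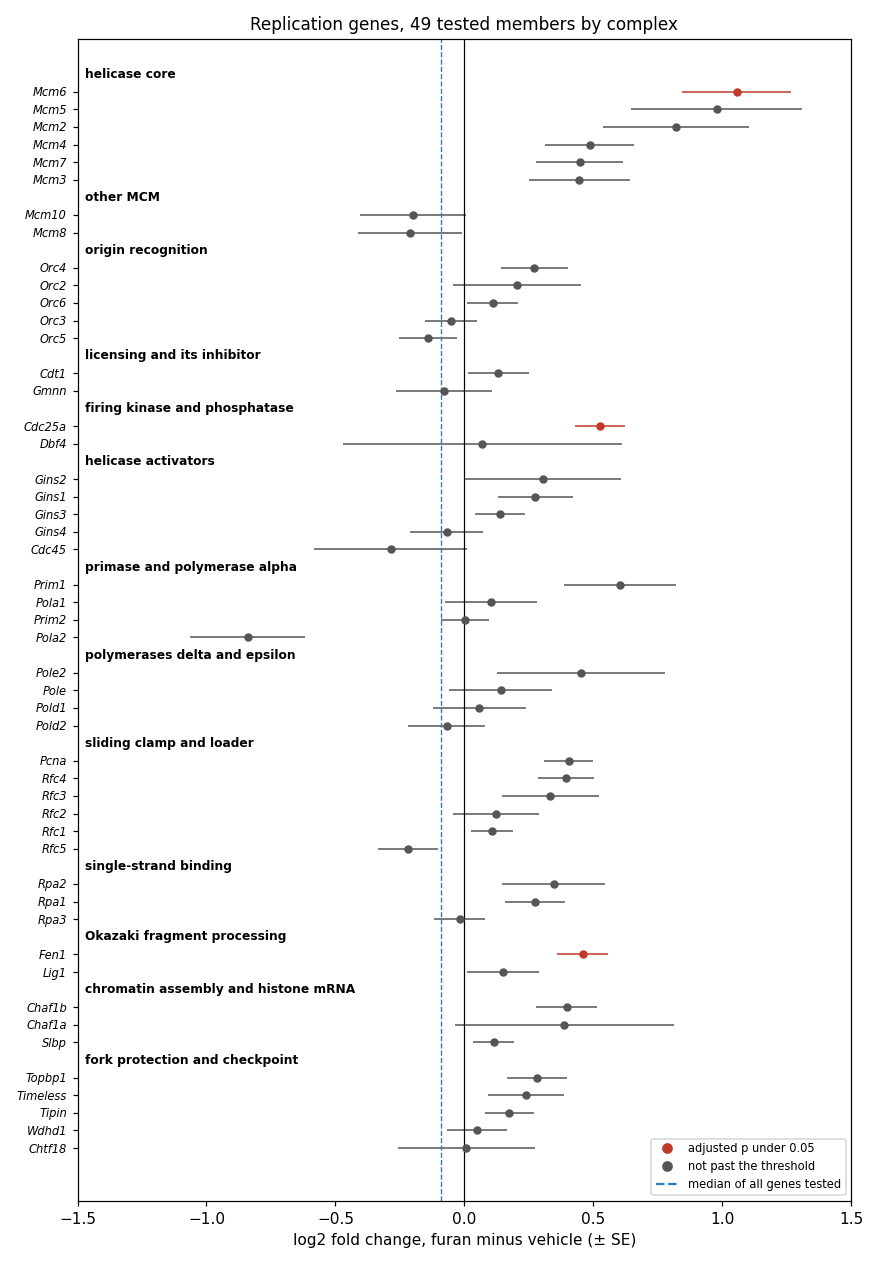
Log2 fold change (x axis, furan minus vehicle, bars are the standard error of the limma fit over 4 arrays a group) of the 49 tested members, grouped by complex, with members past the adjusted threshold in red. The 6 helicase genes lie between 0.45 and 1.06, Cdc25a and Fen1 stand right of 0 with narrow bars, and Pola2 stands alone at -0.84.

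The helicase core had the highest median log2 fold change of the 13 groups, and Mcm6 and Mcm5 the highest values of single members. All 6 of its genes had a log2 fold change above 0, from 0.45 to 1.06 with a median of 0.65, 5 had an unadjusted p under 0.05, and 1, Mcm6, passed the adjusted threshold. The median of the 43 members outside the core was 0.13. That the core stood apart from the rest was not tested. The 300-base windows around the start sites of members (250 bases before to 50 after, RefSeq, GRCm38.p6) were searched for E2F-type sites. The windows of Mcm6 and Mcm5, which held matches, are shown with that of Mcm2, which held none. From outside the core, Cdc25a, which rose, and Pola2, the member with the lowest log2 fold change, are shown beside them. Each is written 5' to 3' on the strand of its gene: Mcm2 at chr6:88898731-88899030, minus strand; Mcm5 at chr8:75109259-75109558, plus strand; Mcm6 at chr1:128359656-128359955, minus strand; Cdc25a at chr9:109875329-109875628, plus strand; and Pola2 at chr19:5964157-5964456, minus strand. Capitals mark the letters TTTCCCGC, TTTGGCGC, TTTCGCGC or TTTGCCGC on either strand.
Mcm6: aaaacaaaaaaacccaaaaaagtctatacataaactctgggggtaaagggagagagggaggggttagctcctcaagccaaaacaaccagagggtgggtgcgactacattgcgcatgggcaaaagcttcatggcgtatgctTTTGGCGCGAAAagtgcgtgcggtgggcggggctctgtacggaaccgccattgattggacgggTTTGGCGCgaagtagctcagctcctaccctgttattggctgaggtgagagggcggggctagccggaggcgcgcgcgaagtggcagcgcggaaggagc
Mcm5: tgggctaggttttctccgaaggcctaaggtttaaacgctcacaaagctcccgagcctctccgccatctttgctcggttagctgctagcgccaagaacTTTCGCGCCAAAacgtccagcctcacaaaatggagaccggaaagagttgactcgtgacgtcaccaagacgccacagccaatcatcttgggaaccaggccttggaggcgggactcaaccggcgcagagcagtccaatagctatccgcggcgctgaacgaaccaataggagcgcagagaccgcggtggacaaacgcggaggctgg
Mcm2: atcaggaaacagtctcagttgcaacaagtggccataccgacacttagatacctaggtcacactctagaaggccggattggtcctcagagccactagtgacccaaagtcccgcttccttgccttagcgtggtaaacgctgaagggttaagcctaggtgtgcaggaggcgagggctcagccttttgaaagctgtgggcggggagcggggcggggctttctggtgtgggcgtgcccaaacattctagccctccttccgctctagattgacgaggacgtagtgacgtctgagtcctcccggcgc
Cdc25a: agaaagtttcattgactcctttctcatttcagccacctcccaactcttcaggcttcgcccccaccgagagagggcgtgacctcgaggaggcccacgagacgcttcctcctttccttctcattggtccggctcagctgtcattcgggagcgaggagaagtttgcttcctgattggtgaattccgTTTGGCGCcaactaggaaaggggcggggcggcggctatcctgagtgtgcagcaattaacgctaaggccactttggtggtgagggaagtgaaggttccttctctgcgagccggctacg
Pola2: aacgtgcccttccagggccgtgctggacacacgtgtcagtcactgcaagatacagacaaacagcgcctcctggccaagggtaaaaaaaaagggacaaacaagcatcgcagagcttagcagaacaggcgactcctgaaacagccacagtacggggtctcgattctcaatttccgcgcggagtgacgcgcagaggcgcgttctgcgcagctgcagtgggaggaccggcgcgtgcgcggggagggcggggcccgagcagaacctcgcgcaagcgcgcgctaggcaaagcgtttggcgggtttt

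In the Mcm6 window TTTGGCGC began 110 bases before the start, overlapping GCGCGAAA from 106 bases before it, which is TTTCGCGC on the other strand, and a further TTTGGCGC began 47 bases before the start. In the Mcm5 window TTTCGCGC at 153 bases before the start overlapped GCGCCAAA at 149 bases before it, again 1 run that can be read on both strands. Cdc25a had a single TTTGGCGC, 67 bases before its start. In the windows not shown, Mcm3 had GCGGGAAA 19 bases and TTTGGCGC 38 bases after its start. The first of 2 windows of Mcm7 had GCGGGAAA 165 bases before and TTTCGCGC 16 bases after the start. The letters were not in the windows of Mcm2, Pola2, Fen1 or Pcna.

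Windows were given for 44 of the 53 members, 53 windows in all, and Mcm4, Gins1, Gins2, Gins4, Gmnn, Pole, Prim2, Rfc2 and Tipin were not among them. Any of the 4 words was in 18 of the 53 windows, 34.0%, against 2.26% of the 32851 windows of the table. In the helicase core it was in 4 of 6 windows. The CCAAT box, searched as CCAAT on both strands, was in 54.7% of the windows of members and 37.4% of all windows. Every window of the helicase core held it, 6 of 6. Among 25 windows of G2/M and mitosis genes the shares were 4.0% with an E2F-type word and 84.0% with CCAAT. Letters in a window describe the sequence and do not show that a factor bound there. The 15 tested members with an E2F-type word had a median log2 fold change of 0.28 and included Mcm6 and Cdc25a, and the 25 without had a median of 0.11 and included Fen1. The helicase genes, the group with the highest median log2 fold change, are among both. Without them the medians were 0.14 for 11 members and 0.11 for 24.

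The Mcm6 subunit of the ring was read at 2.22, 2.64, 2.38 and 2.37 on the vehicle arrays (replicates 2, 3, 4 and 6 in that order, as in every list of vehicle values) and at 3.17, 3.02, 3.88 and 3.76 on the furan arrays (replicates 41, 42, 43 and 44). Every furan array was above every vehicle array, and replicates 43 and 44 were above the other furan arrays. Mcm6 rose by 1.06 ± 0.21 (log2, SE, n = 4 a group), or 2.08-fold, with a 95% confidence interval of 0.57 to 1.54 and a limma adjusted p of 0.0371.

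Mcm2, whose N-terminal tail also binds histones at the fork, read -2.43, -2.19, -2.29 and -2.27 on the vehicle arrays and -2.07, -1.95, -0.93 and -0.95 on the furan arrays. The groups did not overlap, but replicates 41 and 42 were close to the vehicle arrays and 43 and 44 stood well above them. The log2 fold change was 0.82 ± 0.28 with a limma adjusted p of 0.138. Mcm5, which sits beside Mcm2 at the gate through which the ring opens, read -1.12, -0.62, -1.12 and -1.45 against -0.65, -0.68, 0.49 and 0.45. Furan replicates 41 and 42 were below vehicle replicate 3 here, and 43 and 44 were above every other array. Its log2 fold change of 0.98 ± 0.33 had a limma adjusted p of 0.132.

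Mcm4, one of the ATPase subunits of the ring and a substrate of the Cdc7 kinase, read 0.50, 0.61, 0.51 and 0.53 in vehicle and 0.78, 0.68, 1.20 and 1.44 in furan. These groups did not overlap, and the log2 fold change was 0.49 ± 0.17 with a limma adjusted p of 0.147. Mcm3, the partner of Mcm5 in the ring, read 0.00, 0.09, 0.07 and -0.07 against 0.21, 0.02, 0.80 and 0.83. Furan replicate 42 lay inside the range of the vehicle arrays for Mcm3, whose log2 fold change was 0.45 ± 0.19 with a limma adjusted p of 0.213. Mcm7, which pairs with Mcm4 in the helicase, read 2.24, 2.38, 2.18 and 1.89 against 2.60, 2.22, 2.81 and 2.83, so that replicate 42 was again within the vehicle range. Its log2 fold change was 0.45 ± 0.17 with a limma adjusted p of 0.163.

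**Figure D2:**
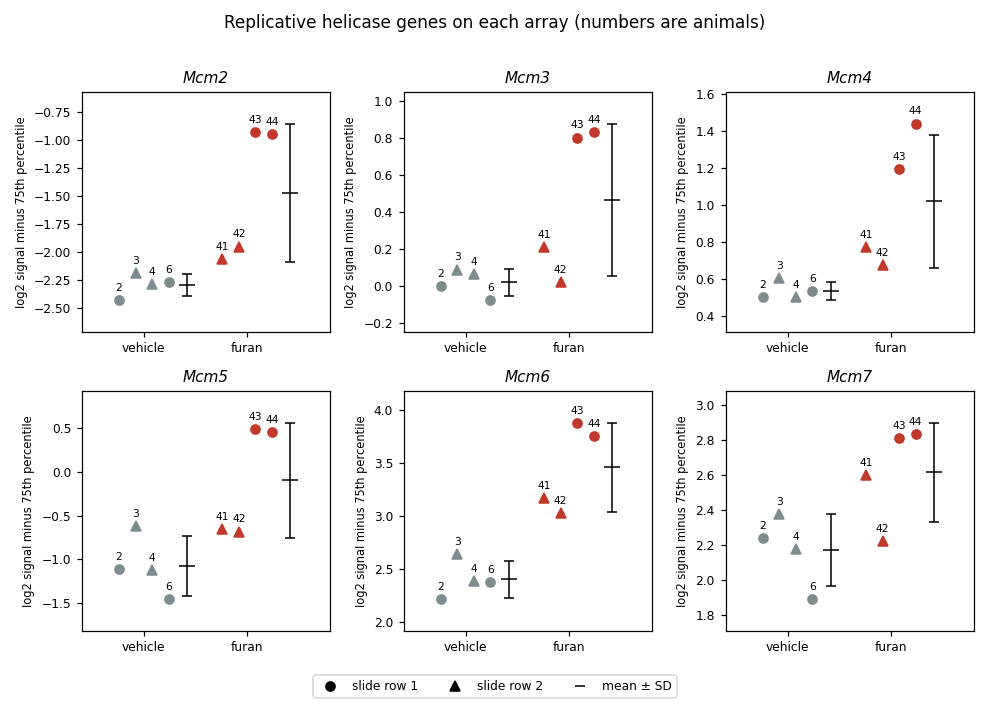
Level of each of the 6 helicase genes on each array (y axis, log2 signal minus the 75th percentile of the array; each panel has its own scale), with vehicle in grey, furan in red, circles for slide row 1, triangles for slide row 2, and the mean ± SD of 4 arrays. In every panel furan replicates 43 and 44 are the highest arrays, and replicates 41 and 42 lie nearer to the vehicle arrays.

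The furan arrays thus differed among themselves in all 6 helicase genes. The median of the 6 over the vehicle mean of each gene was 0.33 and 0.24 on replicates 41 and 42 and 1.08 and 1.13 on replicates 43 and 44, against -0.06 to 0.16 on the vehicle arrays. Replicates 43 and 44 were in row 1 of the slide and 41 and 42 in row 2. Both row 1 furan arrays were above both row 2 furan arrays in 6 of 6 helicase genes, in 29 of the 49 members (59.2%) and in 19.1% of all genes. Among the vehicle arrays, which also lay 2 in each row, the row 1 arrays were above the row 2 arrays in 0 of 6 helicase genes and 4 of 49 members (8.16%), against 21.2% of all genes. Within row 1 the median log2 fold change of the helicase core was 1.13 and within row 2 it was 0.19, with all 6 genes above 0 in both rows. For Mcm6 these values were 1.52 and 0.59. The limma adjusted p of Mcm6 was 0.0457 with slide row as a block and 0.133 with slide column, which pairs 1 vehicle with 1 furan array, as a block. Animal and slide row cannot be told apart within the furan group.

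Among the MCM relatives outside the ring 0 of 2 passed the threshold. Mcm10, a scaffold that helps the helicase to fire, had a log2 fold change of -0.20 ± 0.21 (limma adjusted p = 0.542), and of -0.40 ± 0.12 (limma adjusted p = 0.111) without vehicle replicate 2. Mcm8, which acts with Mcm9 in break repair, read -1.95, -2.72, -2.85 and -2.59 in vehicle and -2.51, -2.91, -2.82 and -2.72 in furan. The groups overlapped, and its log2 fold change of -0.21 ± 0.20 (limma adjusted p = 0.512) was above 0 under 4 other settings of the processing, by 0.12 to 0.28. Without vehicle replicate 2 it was -0.02.

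Origin recognition and licensing genes showed small differences. Of the origin recognition subunits 5 were tested, with log2 fold changes of -0.14 to 0.27 and a median of 0.11, and 0 passed the threshold or an unadjusted p of 0.05. The lead among them was Orc4, at -1.63, -1.95, -1.59 and -1.84 in vehicle and -1.24, -1.44, -1.65 and -1.60 in furan. Furan replicates 43 and 44 were inside the vehicle range for Orc4, unlike in the helicase genes, and its log2 fold change was 0.27 ± 0.13 (limma adjusted p = 0.246). Orc1, the subunit that comes and goes with the cell cycle, was well above background on 0 of the 8 arrays and was not tested.

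Cdt1, which brings the MCM ring to the origin, read 1.48, 1.49, 1.54 and 1.50 in vehicle and 1.57, 1.35, 1.84 and 1.77 in furan. Replicates 43 and 44 were the highest arrays, replicate 42 was the lowest of all, and the log2 fold change was 0.13 ± 0.12 (limma adjusted p = 0.485). Its inhibitor geminin, Gmnn, had a log2 fold change of -0.08 ± 0.19. Cdc6, the other loader, was well above background on 1 array only, that of vehicle replicate 2, and so were the kinase Cdc7 and the checkpoint mediator Clspn. None of these 3 was tested, and no level is given for them.

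Of the genes that trigger firing, Cdc25a, the phosphatase that activates the cyclin-dependent kinases at the start of S phase, rose. It read 0.21, 0.45, 0.47 and 0.42 on the vehicle arrays and 0.90, 1.06, 0.85 and 0.84 on the furan arrays. The groups did not overlap and the furan arrays lay close together, with replicate 42, among the lowest furan arrays for the helicase genes, the highest here. The log2 fold change was 0.53 ± 0.10, or 1.44-fold, with a 95% confidence interval of 0.30 to 0.75 and a limma adjusted p of 0.0300. It was 0.53 within slide row 1 and 0.52 within row 2, and the call was lost with slide column as a block (limma adjusted p = 0.152). Dbf4, the activating partner of Cdc7, had a log2 fold change of 0.07 ± 0.54, its level being -1.54 on the array of vehicle replicate 2 and -3.95 to -3.79 on the other vehicle arrays. Without that array its log2 fold change was 0.65 ± 0.20 (limma adjusted p = 0.108).

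The helicase activators, Cdc45 and the 4 GINS subunits, had log2 fold changes of -0.29 to 0.31 with a median of 0.14, and 0 of 5 passed the threshold or an unadjusted p of 0.05. Gins2 led them, at -0.83, -1.69, -2.15 and -1.86 in vehicle and -1.62, -1.65, -0.96 and -1.07 in furan. The array of vehicle replicate 2 was the highest of the 8, and furan replicates 43 and 44 came next. Its log2 fold change was 0.31 ± 0.30 (limma adjusted p = 0.523), and 0.57 ± 0.22 (limma adjusted p = 0.171) without vehicle replicate 2. Cdc45 moved from -0.29 to -0.01 when that array was left out, and Orc2, also brightest on it, from 0.20 to 0.46.

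Polymerase alpha with primase, which lays down the RNA-DNA primers, held the largest difference in each direction outside the helicase core. Pola2, its B subunit, read -1.95, -2.34, -2.88 and -2.86 in vehicle and -3.35, -3.37, -3.11 and -3.57 in furan. Every furan array was below every vehicle array, and the vehicle arrays themselves were spread widely (SD 0.45, against 0.19 in furan). The log2 fold change was -0.84 ± 0.22 with a limma adjusted p of 0.0750, which missed the threshold. This probe was dim, and the log2 fold change shrank to -0.30 with quantile normalization and to -0.19 in the authors' value table. Prim1, the catalytic primase subunit, had a log2 fold change of 0.60 ± 0.22 (limma adjusted p = 0.150) with overlapping groups, while Pola1 and Prim2 were at 0.10 ± 0.18 and 0.00 ± 0.09.

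The 4 genes tested of polymerases delta and epsilon, which copy the lagging and the leading strand, had log2 fold changes of -0.07 to 0.45, and 0 passed the threshold or an unadjusted p of 0.05. Pole2, the B subunit of polymerase epsilon, had the largest, reading -4.22, -4.57, -4.17 and -4.31 in vehicle and -3.78, -4.88, -3.28 and -3.52 in furan. It was well above background on 2 vehicle and 3 furan arrays only, furan replicate 42 was the lowest of the 8, and the log2 fold change was 0.45 ± 0.33 (limma adjusted p = 0.395).

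Pcna, the sliding clamp, read 2.66, 2.80, 2.88 and 2.92 in vehicle and 3.28, 3.08, 3.27 and 3.25 in furan. The groups did not overlap, and furan replicates 41, 43 and 44 read nearly the same, with replicate 42 lower. The log2 fold change was 0.40 ± 0.09, or 1.32-fold, and its limma adjusted p of 0.0563 just missed the threshold. Of the 5 subunits of the clamp loader, Rfc4 had 0.39 ± 0.11 (limma adjusted p = 0.0838) with every furan array above every vehicle array. A dimmer kept probe of Rfc4 had 0.24 ± 0.18 (limma p adjusted over probes = 0.409) with overlapping groups. Rfc5 had -0.22 ± 0.12 (limma adjusted p = 0.283) with every furan array below. Rfc1, Rfc2 and Rfc3 lay between 0.11 and 0.33. Rfc3 passed the threshold with quantile normalization, and without vehicle replicate 2 its log2 fold change was 0.52 ± 0.11 (limma adjusted p = 0.0522).

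Replication protein A, the trimer that coats single-stranded DNA, had 3 genes with 0 past the threshold. Rpa2, the subunit phosphorylated under replication stress, read -1.21, -0.62, -1.27 and -0.79 in vehicle and -0.72, -0.99, -0.40 and -0.39 in furan. The groups overlapped, with replicates 43 and 44 highest, and the log2 fold change was 0.35 ± 0.20 (limma adjusted p = 0.310). Rpa1 had 0.27 ± 0.11 (limma adjusted p = 0.200, unadjusted p = 0.0448) with no overlap between groups, and Rpa3 had -0.02 ± 0.10.

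Fen1, the flap endonuclease that trims Okazaki fragments on the lagging strand and also acts in base excision repair, rose. Its levels were 0.59, 0.36, 0.35 and 0.32 in vehicle and 0.83, 0.73, 0.90 and 0.99 in furan. The groups did not overlap, although vehicle replicate 2 came near the lowest furan array. The log2 fold change was 0.46 ± 0.10, or 1.37-fold, with a 95% confidence interval of 0.23 to 0.69 and a limma adjusted p of 0.0470. It was 0.49 within slide row 1 and 0.42 within row 2, and the call was lost with row as a block (limma adjusted p = 0.0523) and with column as a block (0.176). Lig1, the ligase that seals the trimmed fragments, had 0.15 ± 0.14 (limma adjusted p = 0.499).

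Chaf1b, a subunit of the chromatin assembly factor that places histones on new DNA, read 0.88, 1.23, 1.19 and 1.16 in vehicle and 1.37, 1.40, 1.70 and 1.58 in furan. The groups did not overlap, and the log2 fold change was 0.40 ± 0.12 (limma adjusted p = 0.100). A dimmer kept probe of Chaf1b had 0.40 ± 0.21 (limma p adjusted over probes = 0.289) with overlapping groups. The large subunit Chaf1a had nearly the same log2 fold change with a larger error, 0.39 ± 0.42, its vehicle arrays running from -2.19 to -0.49 with replicate 2 at the top. Without that array it was 0.73 ± 0.34 (limma adjusted p = 0.252). Slbp, which binds the stem-loop of histone mRNA, had 0.11 ± 0.08 with no overlap between groups. Its dimmer kept probe had 0.08 ± 0.11 with overlapping groups.

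The fork protection genes Timeless, Tipin, Chtf18 and Wdhd1 and the checkpoint scaffold Topbp1 had log2 fold changes from 0.01 to 0.28, and 0 of these 5 passed the threshold. Topbp1 read -0.90, -0.83, -0.80 and -0.64 in vehicle and -0.55, -0.68, -0.56 and -0.25 in furan. Furan replicate 42 was just below the highest vehicle array, and the log2 fold change was 0.28 ± 0.12 (limma adjusted p = 0.193, unadjusted p = 0.0414).

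**Figure D3:**
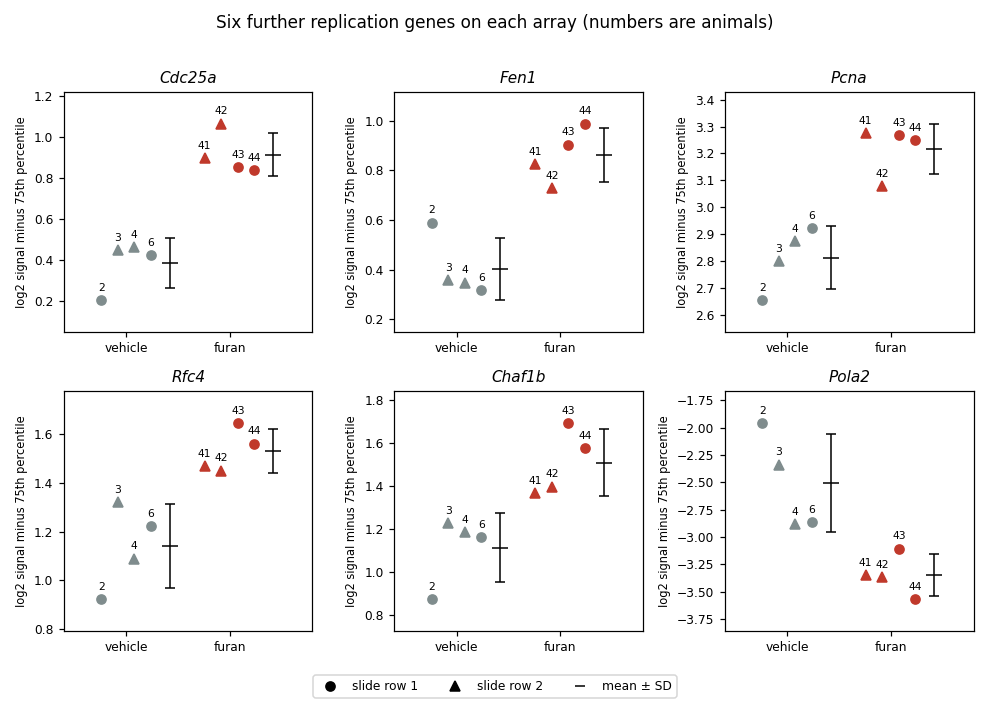
Level of Cdc25a, Fen1, Pcna, Rfc4, Chaf1b and Pola2 on each array (y axis, log2 signal minus the 75th percentile of the array; each panel has its own scale), with symbols as for the helicase genes and the mean ± SD of 4 arrays. Only genes whose groups do not overlap are shown, each by its brightest probe. Of the 43 tested members outside the helicase core, 7 higher (16.3%) and 2 lower in furan had no overlap. Over all genes these shares were 10.8% and 7.33%, and 14.2% of genes with a symbol were higher without overlap. The furan arrays of Cdc25a, Fen1 and Pcna have an SD of 0.09 to 0.11, against 0.28 to 0.66 for the helicase genes.

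Further replication genes that are not members were looked at in the same way. Of 40 such genes 38 were tested and 0 passed the threshold, against 4.18% of all genes. An unadjusted p under 0.05 was found for 8 (21.1%, against 23.8% of all genes), 6 higher and 2 lower in furan. The median log2 fold change of the 38 was 0.05. The smallest adjusted p-values were those of the checkpoint kinase Atr at 0.48 ± 0.13 (0.0761), the polymerase epsilon subunit Pole3 at 0.30 ± 0.09 (0.0927), the topoisomerase Top1 at 0.39 ± 0.12 (0.0968) and the repair polymerase Poln at -0.53 ± 0.17 (0.116), all from limma.

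Genes of later cell cycle steps and of cell cycle arrest were measured for context. Of 23 tested G2/M and mitosis genes 9 rose (39.1%, against 2.87% of all genes) and 0 fell, with a median log2 fold change of 1.17. In this list the proliferation marker Mki67 had 0.96 ± 0.27 (limma adjusted p = 0.0857). On the array medians of this list replicates 43 and 44 were again the highest, at 1.26 and 1.58, with 0.70 and 1.02 on replicates 41 and 42. Cdkn1a, whose product p21 inhibits cyclin-dependent kinases and binds Pcna, rose by 4.66 ± 0.23 (log2, limma adjusted p = 0.000559), with all furan arrays between 2.18 and 2.67 and no lead of replicates 43 and 44 together. Another Cdkn1a probe, matched to a different RefSeq transcript, had -0.59 ± 0.75 (limma p adjusted over probes = 0.622). That probe was dim, at -5.34 to -3.84 on the furan arrays and -5.92 to -2.09 on the vehicle arrays, with vehicle replicate 2 highest. E2f1 and the cyclin gene Ccne1 had 0.18 ± 0.19 and 0.68 ± 0.38 with overlapping groups, and Ccne2 was not tested. Whether the members and the mitosis genes differed in size of response was not tested.

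**Figure D4:**
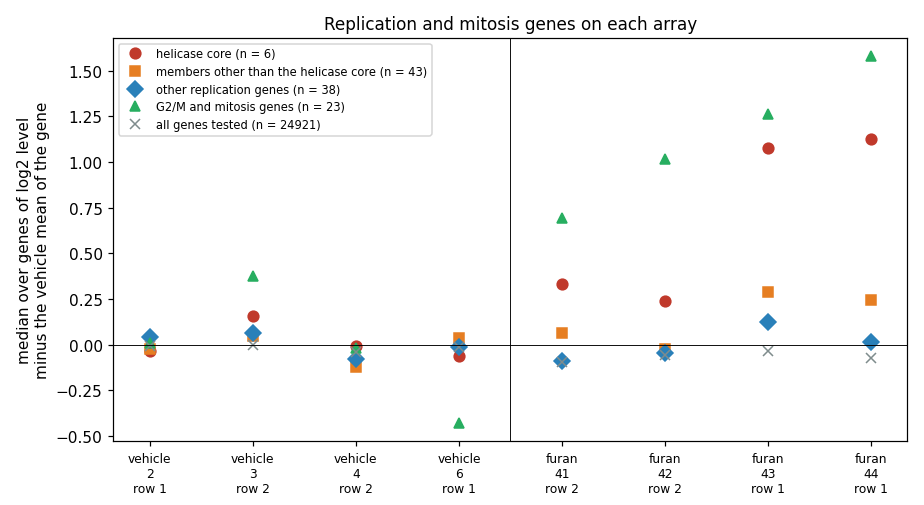
Median over the genes of a list of the level minus the vehicle mean of the gene (y axis, log2), for each of the 8 arrays on the x axis with its slide row. The helicase core stands at 0.24 to 0.33 on furan replicates 41 and 42 and at 1.08 to 1.13 on 43 and 44, the other members stay between -0.02 and 0.29 on the furan arrays, and the mitosis genes are above the helicase core on every furan array.

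The helicase genes kept their direction however the arrays were scaled, while the calls on single members rested on narrow margins. All 6 helicase genes were above 0, and above the median of all genes, in each of 6 other settings that change their values (5 other scalings and array weights) and each of 8 fits without 1 array. The other 7 settings leave their log2 fold changes as they are. Mcm6 passed the threshold in 9 of the 13 settings and in 0 of the 8 fits without 1 array, where its limma adjusted p was 0.0508 to 0.0943. Cdc25a passed in 10 of 13 settings and 1 of 8 fits, and Fen1 in 4 of 13 settings and 1 of 8 fits. In both cases that fit was the one without vehicle replicate 2. Leaving out an array also leaves fewer samples, and the number of genes past the threshold fell from 1041 to between 195 and 927. Pcna passed in 4 of 13 settings.

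**Figure D5:**
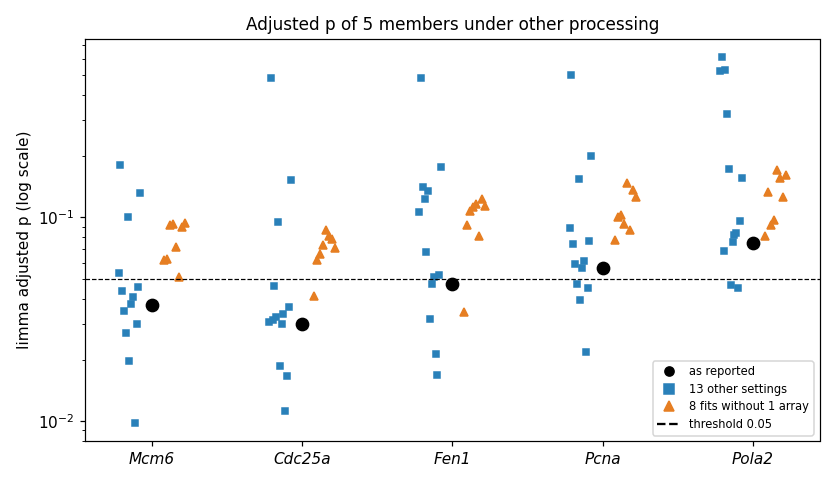
Limma adjusted p (y axis, log scale) of 5 members as reported (black), under 13 other settings (blue) and in 8 fits that each leave out 1 array (orange), with the 0.05 threshold dashed. Mcm6, Cdc25a and Fen1 start below the line, most fits without 1 array lie above it, and Pcna and Pola2 cross below it in 4 and 2 settings.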

How the data were processed

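Per the file headers, the deposited scanner files (Agilent Feature Extraction 11.0.1.1, array design 028005, single Cy3 channel) give a spot intensity before and after background subtraction and detrending. The authors' deposited value table, whose method was not given in the sources used here, is in log2 units. Each of its columns correlates at 0.998 to 1.00 with the log2 median intensity of its own array across probes. Column medians are 6.74 for vehicle replicate 2 and 6.53 to 6.58 for the others, and the scaling method remains unknown.

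Control and outlier-marked spots were left out, log2 processed signals were shifted to the 75th percentile of the array, and spots of 1 probe were averaged. Of 55681 probes 33848 were well above background on at least 4 arrays. The brightest kept probe stood for a gene, named through RefSeq (GRCm38.p6). In 6 members with several kept probes none differed in sign. A limma 3.58.1 fit (lmFit, then eBayes; R 4.3.3) with 2-sided tests and Benjamini-Hochberg adjustment over 24921 features compared the groups. The labels name a randomized block design without block membership, so the fit had 1 group term. The replicates are separate animals, per the labels. The fit was tested on simulated data, and plots were drawn with matplotlib 3.10.9.

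Members and gene lists were chosen with earlier results of these data known. Values per array are given for members past the threshold, for Mcm2 to Mcm7, Pcna and Cdt1, and for the member of each group with the largest absolute log2 fold change. Cdc6 was named by the same rule but was not tested.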

Additional observations from a re-analysis of the deposited data

Results flagged for a closer look

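In 3 of 36 groups of 4 arrays checked, 1 array stood apart from the other 3 by more than Dixon's 95% criterion, which chance gives in about 1 group in 20. Cdc25a was 0.208 on the array of vehicle replicate 2 and 0.42 to 0.47 on the other vehicle arrays. Without that array its log2 fold change was 0.47 (limma adjusted p = 0.0412). Fen1 was 0.589 on the same array and 0.32 to 0.36 on the others, and its log2 fold change without it was 0.52 (limma adjusted p = 0.0344). Pcna was 3.08 on furan replicate 42 and 3.25 to 3.28 on the other furan arrays. Without replicate 42 its log2 fold change was 0.45 (limma adjusted p = 0.0869).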

How the results depend on the processing

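Animals could not be paired by replicate number, because the groups share none. Each slide column held 1 vehicle and 1 furan array, and column was therefore run as a block. Of 49 members, 3 passed the threshold as reported. The count was 0 with a median shift, without a filter and with slide column as a block, and 0 at an adjusted p under 0.01. It was 5 with a filter on all 8 arrays, with eBayes trend and robust, and with array weights. Without 1 array it was 0 to 2, the 2 being without vehicle replicate 2. The count over all genes, 1041 as reported, was 86, 163 and 0 under those first 3 settings and 101 at an adjusted p under 0.01. Under the next 3 it was 1733, 2001 and 2068. It was 1671 in the authors' value table and 195 to 927 without 1 array. With slide column as a block limma left 4723 genes at an unadjusted p under 0.05. The median shift moved the median of all genes to 0.39, and with it the members to 0.63 and the helicase core to 1.14. Relative to all genes the members were at 0.24 both there and as reported, and at 0.13 to 0.24 under the other scalings. Mcm8, at -0.21 as reported, was above 0 with quantile normalization at 0.26, with the median shift at 0.28, with normexp at 0.14 and in the authors' table at 0.12. With each kept probe on its own 2 member probes passed, both higher. The share of spots well above background, and 4 arrays a group, limit the precision of the dim probes.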
